A study of Rattus norvegicus with 24 samples.

Results

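The genes described here code for the protein subunits of the cytosolic ribosome, measured by RNA sequencing of rat hippocampus. They were chosen by name, as symbols made of Rps or Rpl, a number and at most further digits or the letters a, l, x and y, or that read Rplp0, Rplp1 or Rplp2, and by their mean over the 24 libraries, which had to reach a normalised count of 10. Of 20318 features in the deposited table, 72 had such a symbol and 65 of these met the minimum, 26 of the small subunit and 39 of the large subunit. All 65 were among the 16119 features with a mean of at least 10 that were tested. The members just inside the minimum were Rpl3l, with a mean of 12.4, and Rpl10l, with a mean of 44.2, and the symbols just outside it were Rpl39l, with a mean of 9.54, and Rpl31l3, with a mean of 5.10. Rplp1 and Rplp2 and some other subunits were not among the symbols of these 65. Of these, 4 other subunits were followed only as a list beside the family, and Rplp1 and Rplp2 were not analysed here.

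The libraries came from female rats that were 6 months old before the operation and fall into 4 groups. SHAM rats received vehicle for 7 weeks (n = 7). OVX rats had their ovaries removed and received vehicle for 7 weeks (n = 7). Rats of the group called Prevention had their ovaries removed and received the estrogen estradiol (E2) for 5 weeks (n = 5). Rats of the group called Treatment had their ovaries removed and received vehicle for 3 weeks and then E2 for 2 weeks (n = 5). The labelled durations thus differ between the vehicle and E2 groups, and this difference cannot be told apart from E2 itself. The samples were whole hippocampal tissue, so fewer cells of a type and less RNA per cell cannot be told apart. The labels do not say whether each library came from a separate rat, and p-values measure only the spread between these libraries. Markers of hippocampal neurons were present in every library, with Prox1, a transcription factor of dentate granule cells, at normalised counts from 2035 to 4180 and Neurod6, a transcription factor of pyramidal neurons, from 3670 to 7413.

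Cytosolic ribosomal proteins are the structural subunits that, with ribosomal RNA, form the small subunit that decodes the messenger RNA and the large subunit that joins amino acids. The subunits are needed in equal numbers, and their genes are known for moving together. Most of their mRNAs begin with a run of pyrimidines, the 5′ terminal oligopyrimidine (TOP) motif, through which the kinase mTOR and the RNA-binding protein LARP1 control how much of the mRNA is translated. In neurons, ribosomes also serve local protein synthesis in dendrites and axons, and some ribosomal proteins have duplicated genes whose products can take their place in the ribosome.

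The start of the transcript is shown first because it is the sequence the family shares. RefSeq sequence around the annotated transcript start, on assembly GRCr8, was found for 50 of the 65 members. Each line gives 15 bases before the start and 15 bases from the start onward, 5′ to 3′, with the longest uninterrupted run of C and T in capitals. The first line is the stalk protein Rplp0, the next ones are Rps24, Rpl7a, Rpl14 and Rpl28, whose means were lowest in the E2 group Prevention, and the last ones are Rps21 and Rpl22l1, whose means were highest in it.
Rplp0, chr12:46718376-46718405, minus strand: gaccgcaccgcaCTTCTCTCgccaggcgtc
Rps24, chr16:96502-96531, plus strand: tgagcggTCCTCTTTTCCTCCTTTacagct
Rpl7a, chr3:30637121-30637150, plus strand: CTCTCCTCCagccgagcaagatggtgagtg
Rpl14, chr8:129163605-129163634, plus strand: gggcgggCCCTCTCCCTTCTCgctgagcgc
Rpl28, chr1:78083518-78083547, minus strand: ccccgcccctagtgTCTTTCTTTCCgtctc
Rps21, chr3:187724023-187724052, plus strand: gaacgagccaCTTCCTTTCTgtgttctccg
Rpl22l1, chr2:113683181-113683210, plus strand: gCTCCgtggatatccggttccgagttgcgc
The run was 17 bases long in Rps24, 14 in Rpl14, 11 in Rpl28, 10 in Rps21, 9 in Rpl7a and 8 in Rplp0, but 4 in Rpl22l1, a gene named as a paralog of Rpl22. Rps24 and Rps21, whose values went opposite ways in Prevention, thus both hold a long pyrimidine run across the start. Over the 50 members the longest run had a median of 9 bases, against 4 over all 27457 promoters in the same table. A run of at least 8 bases was present in 31 of the 50 members (62%), against 11.4% of all promoters. The run could lie anywhere in the window, and in Rpl7a it ended before the annotated start. These counts are therefore not counts of TOP motifs.

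Further letters were searched on both strands of the window from 250 bases before to 50 bases after the start. The letters CCGGAAG, which hold the core bound by ETS factors, were present in 14 of the 50 members (28%), against 9.22% of all promoters. The letters AAGATGG, the core of the YY1 motif, which can overlap CCGGAAG by their shared AAG, were present in 7 (14%), against 7.30%. The TATA box letters TATAAA were present in 6 (12%), against 14.3%. These matches describe the windows and do not show binding.

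The 24 libraries fell into sets that the groups do not explain. The feature LOC257642 had log2 values of 16.8 to 19.7 in 7 libraries, namely every Prevention library plus replicates 1 and 2 of Treatment. It had 14.0 to 15.2 in the other 17. These are called the high set and the low set. Nothing in the labels marks them as a batch. Reads estimated from the smallest step between values ran from 39.6 M to 53.4 M in the high set and from 26.6 M to 40.1 M in the low set. All Prevention libraries are in the high set and all OVX and SHAM libraries in the low set, so Prevention and the set cannot be told apart in a comparison with either vehicle group. Treatment alone holds libraries of both sets, 2 high and 3 low. Summed choroid plexus markers overlapped between the groups, at 5494 to 197871 in SHAM, 4917 to 107013 in OVX, 5935 to 105561 in Prevention and 4397 to 105132 in Treatment.

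Ribosomal protein mRNAs took up 0.871 to 0.938% of all normalised counts in SHAM, 0.885 to 1.09% in OVX, 0.800 to 0.890% in Prevention and 0.835 to 1.00% in Treatment. To follow the family as a whole, each member's log2 value was set against its own mean over the 24 libraries, and the median over the 65 members was taken in each library. In SHAM this level ran from −0.066 to 0.029, with a median of −0.044. In OVX it ran from −0.090 in replicate 7 to 0.23 in replicate 3, with a median of 0.048. OVX held both the highest library and one of the lowest, so it overlapped SHAM. In Prevention the level was −0.069, 0.0037, −0.12, −0.048 and −0.035 in replicates 1 to 5. In Treatment it was −0.055 and −0.11 in replicates 1 and 2 of the high set, and 0.082, 0.082 and 0.033 in replicates 5, 6 and 7 of the low set. The members moved together within a library. OVX replicate 3 was the highest of the 24 libraries for 48 of the 65 members, and Prevention replicate 3 was the lowest for 16. Counts of members below are therefore not counts of independent genes.

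**Figure D1:**
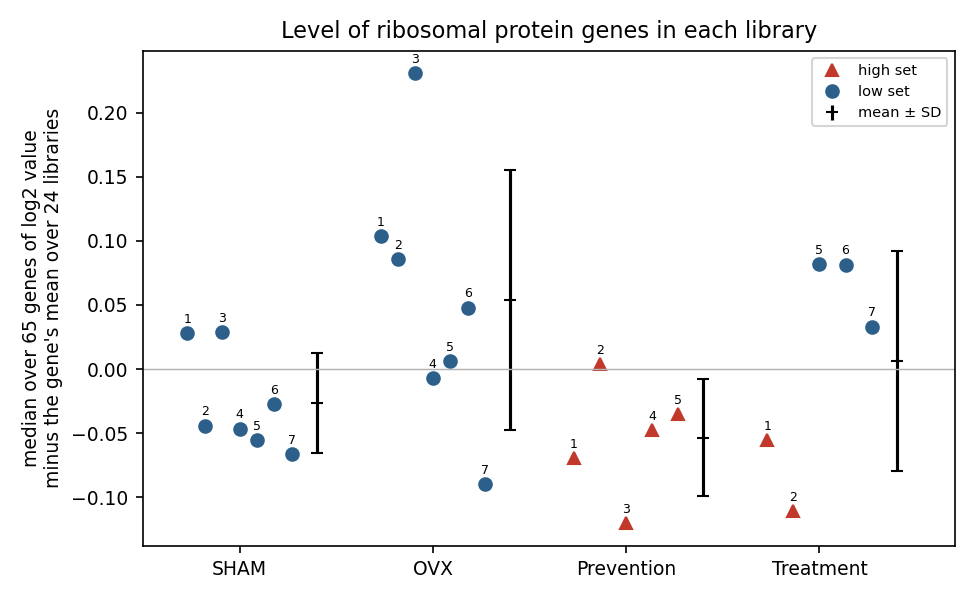
Level of the 65 ribosomal protein genes in each of the 24 libraries, as the median over genes of the log2 value minus the gene's own mean over 24 libraries; numbers are replicate numbers, triangles are the high set, circles the low set, and bars show the mean ± SD of the group. OVX replicate 3 stands highest at 0.23, and Treatment splits into 2 libraries below 0 and 3 above it.

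The comparison of OVX with SHAM asks what removal of the ovaries did on vehicle alone. Most ribosomal protein mRNAs stood slightly higher in OVX: 60 of the 65 members had a positive log2 change (51.7% of all features tested did), with a median of 0.090 against 0.0043 over all features. The small subunit had a median of 0.090, with 25 of 26 members above 0, and the large subunit 0.086, with 35 of 39 above 0. The members below 0 were Rpl12, Rpl13a, Rpl3l, Rpl7l1 and Rps4y2, and 3 of these are members whose names mark a duplicated gene. No member passed an adjusted p of 0.05 in limma, nor did any of the 16119 features (percent called 0), and the smallest adjusted p among the members was 0.795. At an unadjusted p under 0.05, 21 members were higher (2.88% of all features were) and 0 lower (3.37% of all features were). OVX replicate 3 carried part of this: without it the median was 0.056, 57 members were above 0 and 5 were higher at an unadjusted p under 0.05. That last count also fell to 11 without OVX replicate 1, 13 without OVX replicate 2 or SHAM replicate 6, 14 without SHAM replicate 2 or 4, and 8 without SHAM replicate 7, and it was 7 with array weights and 11 with the compared groups alone. It rose to 31 without OVX replicate 7, 25 with quantile normalization and 24 without OVX replicate 4. These refit counts stand without the share of all features in the same fits, so they are no result about the family. In no member did the groups separate (0.0186% of all features lay wholly higher). Markers of other tissue also differed: 12 of 12 choroid plexus markers were above 0 (median 0.43), 10 of 12 thalamus markers (median 0.16) and 9 of 10 microglia markers (median 0.11), while 8 of 11 hippocampal neuron markers were below 0 (median −0.092). None of them passed the test, and their part in the result was not tested beyond a covariate for choroid plexus, with which the median was 0.089.

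The largest positive changes of single members were those of Rps6, Rpl31l4 and Rpl28. Rpl28, a large subunit protein, stood at a lowest of 2813, a median of 4101 and a highest of 5034 in OVX, and at 2718, 2858 and 3880 in SHAM. Of the 7 OVX libraries 5 lay above every SHAM library, and the groups overlapped through OVX replicates 4 and 6. The mean was 3931 ± 802 (SD, n = 7) in OVX and 2974 ± 403 (SD, n = 7) in SHAM, a log2 change of 0.38 ± 0.12 (SE), with an adjusted p of 0.795 in limma. Rplp0, the base of the ribosomal stalk that recruits elongation factors and a common reference gene, had 11851 ± 825 in OVX and 11156 ± 632 in SHAM, a change of 0.086 ± 0.050 (SE). This change, near the family's median, did not pass the test, with an adjusted p of 0.831 in limma. Rps2, at the mRNA entry side of the small subunit, had a change of 0.16, Rpl23a of the large subunit 0.17 and Rpl41, the shortest ribosomal protein, 0.14, and none of these passed.

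**Figure D2:**
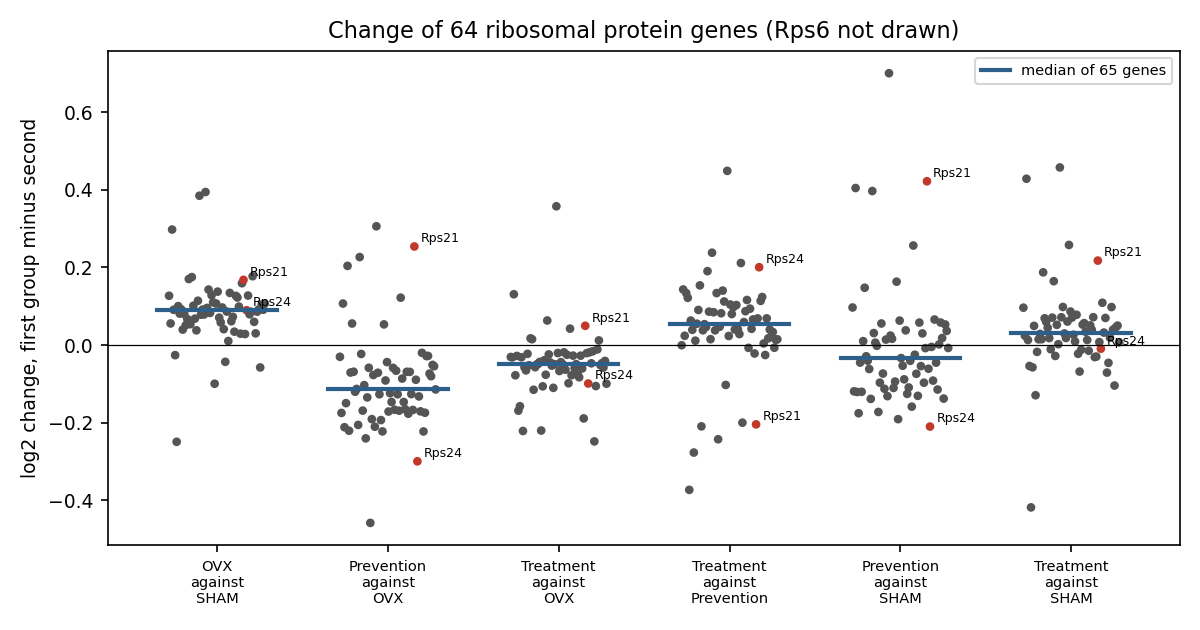
Log2 change of 64 ribosomal protein genes in the 6 comparisons, first group minus second; each point is a gene, blue lines are the median of all 65 genes, and Rps6 is not drawn because its values are unreliable. The cloud lies above 0 for OVX against SHAM (median 0.090) and below 0 for Prevention against OVX (median −0.11), with Rps21 above and Rps24 below the cloud in the latter.

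The comparison of Prevention with OVX asks what E2 given through the 5 weeks did after ovary removal. Most members stood lower in Prevention: 56 of 65 had a negative change (49.7% of all features did), with a median of −0.11 against 0.00081 over all features. The 9 members above 0 (50.2% of all features were) were Rpl10l, Rpl13a, Rpl17, Rpl22l1, Rpl31l4, Rpl37a, Rps10l1, Rps21 and Rps6. In limma 1 member passed an adjusted p of 0.05 on the lower side (0.105% of all features did) and 0 on the higher side (0.199% did). The member that passed was Rps24, which was picked for its values in these data, so that this call supports nothing. At an unadjusted p under 0.05, 27 members were lower (8.56% of all features were) and 2 higher, Rpl22l1 and Rps21 (10.1% of all features were). Without Rps24 and Rps21, which was picked in the same way, 26 were lower and 1 higher. The Prevention and OVX libraries did not overlap for 3 members, all lower in Prevention, namely Rpl14, Rpl7a and Rps24 (0.664% of all features did so on that side), and 0 members lay wholly higher (1.20% of all features did). Here 11 of 12 choroid plexus markers (median 0.46), 11 of 12 thalamus markers (median 0.35) and 9 of 11 hippocampal neuron markers (median 0.093) were above 0. None passed, and their part in the result was not tested beyond the choroid plexus covariate.

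This difference could not be separated from the library set. In a fit with a term for the set, which the 5 Treatment libraries alone can estimate, the median change of the members was 0.050, 43 of 65 were above 0 and 0 were called. Within Treatment, where all rats had the same labels, the 2 high-set libraries were lower than the 3 low-set libraries by a median of −0.14 over the members, with 8 of 65 above 0, against −0.0031 over all features. Single libraries also decided the number called. It was 0 without any of OVX replicates 1, 2, 3 and 6, Prevention replicates 1, 2, 3 and 4 or SHAM replicate 6. It was 2 without OVX replicate 4 (Rpl28 and Rps24) or Treatment replicate 1 (Rpl7a and Rps24), and 9 without OVX replicate 7, the lowest OVX library. The 9 were Rpl11, Rpl14, Rpl21, Rpl26, Rpl31, Rpl7a, Rps18l1, Rps21 and Rps24, of which Rps21 and Rps24 were picked for their values. These counts stand without the share of all features called in the same fits, so they are no result about the family.

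Rpl7a of the large subunit had 5396, 5416, 5283, 5378 and 5460 in Prevention replicates 1 to 5. OVX ran from 5537 through a median of 6049 to 6422. Prevention lay below every OVX library and also below the lowest SHAM library, at 5669. In Treatment the high-set libraries had 5178 and 5486 and the low-set libraries 6099, 6060 and 6172, so Treatment split at the same place as the sets. The mean was 5387 ± 65.6 (SD, n = 5) in Prevention and 6054 ± 335 (SD, n = 7) in OVX, a change of −0.17 ± 0.044 (SE), with an adjusted p of 0.0675 in limma. Its change was 0.031 with the library set as a term. Rpl7a and Rps24 were the only members for which the high set lay wholly below the low set (0.0869% of all features did so), and Rps24 was picked for its values in these libraries.

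Rpl14 of the large subunit had 4951, 4767, 4742, 4726 and 4979 in Prevention and ran from 5114 through 5544 to 6703 in OVX. These groups did not overlap, but Prevention overlapped SHAM, which ran from 4795 to 5744. The change against OVX was −0.22 ± 0.063 (SE), with an adjusted p of 0.0794 in limma, and −0.044 with the set in the fit. Rpl26, a large subunit protein also known for binding the mRNA of the tumour suppressor p53, had 7614, 7467, 7539, 7952 and 8252 in Prevention and 7909 to 10093 in OVX, with a change of −0.24 ± 0.067 (SE) and an adjusted p of 0.0762 in limma. With the set as a term the change of Rpl26 was 0.11. Rpl28 had the most negative change of all members, −0.46 ± 0.13 (SE), with 2809 ± 109 (SD, n = 5) in Prevention and an adjusted p of 0.0748 in limma. With the set in the fit this change was −0.27 ± 0.23 (SE). Its Prevention libraries, at 2697 to 2990, overlapped OVX through OVX replicates 4 and 6 and overlapped the 6 lower SHAM libraries, at 2718 to 2891. Rpl11, which with Rpl5 and the 5S RNA can hold back the p53 ligase Mdm2, had a change of −0.21 and Rpl5 of −0.12, and neither passed.

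Treatment compared with OVX addresses delayed E2. Here 56 of 65 members had a negative change (50.6% of all features did), with a median of −0.049, against −0.0016 over all features. The 9 members above 0 (49.4% of all features were) included Rps21 and Rpl22l1. In limma 0 members were called in either direction, as were 0 of all features (percent called 0). At an unadjusted p under 0.05, 2 members were lower, Rpl14 and Rps2 (3.09% of all features were), and 0 higher (4.10% were). Within the low set, which leaves 3 Treatment libraries, the median was 0.014, 36 members were above 0 and 0 were lower at an unadjusted p under 0.05. Single libraries moved these values too. The median was −0.016 with 20 members above 0 without OVX replicate 3, −0.022 with 21 above 0 without Treatment replicate 2, and −0.078 without OVX replicate 7. The count lower at an unadjusted p under 0.05 was 6 without OVX replicate 7 or Treatment replicate 6, 5 without Treatment replicate 5, 4 without OVX replicate 4, and 1 without OVX replicate 3 or Treatment replicate 1. Array weights gave 1 such member and 18 members above 0. The share of all features in these refits is not given, so their counts are no result about the family. Of the markers, 0 of 12 for choroid plexus (median −0.62), 1 of 8 for oligodendrocytes (median −0.16) and 3 of 11 for hippocampal neurons (median −0.030) were above 0. None passed, and their part in the result was not tested beyond the choroid plexus covariate.

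Treatment compared with Prevention sets delayed E2, given for 2 weeks, against early E2, given for 5 weeks. Delay and length of E2 thus cannot be told apart. Of the members, 53 had a positive change (48.9% of all features did), with a median of 0.054, against −0.0023 over all features. In limma 0 members were called (percent called 0 for all features in each direction). At an unadjusted p under 0.05, 6 were higher, Rpl10a, Rpl11, Rpl21, Rpl26, Rpl7a and Rps24 (2.76% of all features were), and 2 lower, Rpl22l1 and Rps21 (2.62% were). The groups did not overlap for Rps21 alone, lower in Treatment (0.651% of all features did so on that side, and 0.546% on the other). Rps21 and Rps24 were picked for their values in these data, so this separation supports nothing. Without them 5 members were higher and 1 lower at an unadjusted p under 0.05. The 12 members below 0 (51.1% of all features were) included Rps21, Rpl22l1, Rpl17 and Rpl13a. Within the high set, which leaves 2 Treatment libraries, the median turned to −0.033 with 14 members above 0. Without Treatment replicate 6 the median over both sets was 0.032, 19 members were below 0 and 1 was higher at an unadjusted p under 0.05. That count was 3 without Prevention replicate 1, 3 or 4 or Treatment replicate 7, 2 without Treatment replicate 5, 15 without Treatment replicate 2, 11 with array weights and 0 within the high set. On the lower side 1 member was left without Treatment replicate 6 or 7. The share of all features in these refits is not given, so their counts are no result about the family. Markers of other tissue differed here too: 0 of 12 for choroid plexus (median −1.29), 0 of 12 for thalamus (median −0.42), 0 of 8 for oligodendrocytes (median −0.11), 0 of 4 for blood (median −0.15) and 3 of 11 for hippocampal neurons (median −0.10) were above 0. None passed, and their part was not tested beyond the choroid plexus covariate.

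Against SHAM, the members in Prevention lay on both sides of 0, with 26 above it (50.9% of all features were), 39 below 0 (49.1% of all features were) and a median of −0.034. In limma 2 members were called higher, Rps21 and Rpl22l1 (0.273% of all features were), and 0 lower (0.0807% were). Rps21 was picked for its values, so its call supports nothing, and 1 member was called without Rps21 and Rps24. At an unadjusted p under 0.05, 5 were higher, Rpl22l1, Rpl31l4, Rpl37a, Rps10l1 and Rps21 (7.42% of all features were). On the lower side there were 6, Rpl21, Rpl26, Rpl7a, Rpl7l1, Rps18l1 and Rps24 (5.85% were), and this count was 10 without OVX replicate 3, 13 with array weights, 15 with the compared groups alone and 0 with the set in the fit. The share of all features in these refits is not given, so their counts are no result about the family. The groups did not overlap for 4 members higher in Prevention, Rpl22l1, Rpl37a, Rps10l1 and Rps21 (1.57% of all features), and for 3 lower, Rpl7a, Rps15 and Rps24 (0.912%). Of these, Rps10l1 moved against Rps10, as described below. Their sum overlapped between the groups, at 2665 to 2999 in Prevention and 2572 to 3044 in SHAM. The place of Rps10l1 among the higher members is therefore uncertain. Rps21 and Rps24 were picked for their values. Without them 4 members were higher and 5 lower at an unadjusted p under 0.05. Allowing for the set left 0 members were called and gave a median of 0.12. The median was −0.016 without Prevention replicate 3 or SHAM replicate 1 and −0.017 without SHAM replicate 3. Above 0 were 11 of 12 choroid plexus markers (median 0.98), 12 of 12 thalamus markers (median 0.54) and 4 of 4 blood markers (median 0.40), and 1 of 8 oligodendrocyte markers was (median −0.070). None passed, and their part was not tested beyond the choroid plexus covariate.

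Between Treatment and SHAM, 48 members had a positive change (51.6% of all features did), with a median of 0.032. In limma 0 members were called, against 1 feature of all (0.00620%), and at an unadjusted p under 0.05 Rpl22l1, Rpl31l4, Rps21 and Rps3a were higher (3.29% of all features were) and 0 lower (2.80% were). Rps21 was picked for its values, and 3 members were higher without Rps21 and Rps24. No member lay wholly higher in Treatment (0.292% of all features did). The count of 4 was 1 without SHAM replicate 7, 2 without Treatment replicate 1 or 6, 9 within the low set and 13 with the set in the fit. The share of all features in these refits is not given, so their counts are no result about the family. The low set alone gave a median of 0.096. The median was 0.050 without Treatment replicate 1, 0.061 without Treatment replicate 2, and 0.015 to 0.017 without Treatment replicate 5, 6 or 7. Above 0 were 0 of 8 oligodendrocyte markers (median −0.18), 1 of 12 choroid plexus markers (median −0.32), 3 of 11 hippocampal neuron markers (median −0.10), 9 of 12 thalamus markers (median 0.17) and 9 of 10 microglia markers (median 0.069). None passed, and their part was not tested beyond the choroid plexus covariate.

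The members that departed from the family or that earlier results of these data had singled out are described next. Rps24 and Rps21 get no test, since they were picked for these values. By the spread around the family defined below, Rps21 (0.23) and Rpl22l1 (0.24) stood apart, while Rps24 (0.090) was at the median of the members and differed from most of them in the size of its change in Prevention and not in its direction. Rps24 (GRCr8, chromosome 16) is a small subunit protein whose gene is mutated in some cases of Diamond-Blackfan anaemia. Prevention had 3166, 3356, 3187, 3195 and 3386, and Treatment had 3367 and 3283 in the high set and 4109, 4180 and 3865 in the low set. OVX ran from 3595 through a median of 4020 to 4696 and SHAM from 3528 through 3758 to 3981. All 7 high-set libraries thus lay below all 17 low-set libraries, and Treatment fell on both sides. The mean was 3258 ± 104 (SD, n = 5) in Prevention and 4020 ± 337 (SD, n = 7) in OVX, a change of −0.30. Fitted with the library set, the change was −0.015.

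Rps21 (GRCr8, chromosome 3), a small subunit protein, had 1469, 1510, 1387, 1459 and 1490 in Prevention, and 1350, 1282, 1258, 1299 and 1165 in Treatment. OVX ran from 1059 through 1269 to 1388 and SHAM from 986 through 1110 to 1268. Prevention lay above every Treatment and SHAM library, and its lowest library, at 1387, stood just below the highest OVX library, at 1388. Unlike Rps24, Rps21 did not split Treatment by set: its high-set libraries, at 1350 and 1282, lay near the low-set ones, at 1165 to 1299. The mean was 1463 ± 46.8 (SD, n = 5) in Prevention, 1271 ± 68.2 (SD, n = 5) in Treatment, 1231 ± 112 (SD, n = 7) in OVX and 1096 ± 113 (SD, n = 7) in SHAM. The change from SHAM to Prevention was 0.42, and 0.34 once the set was in the fit. Against OVX the corresponding values were 0.25 and 0.17. Within the high set Treatment minus Prevention was −0.15. The feature named Rps21-ps1 ran from 1405 to 1966 over the 24 libraries, and the sum of both from 2394 to 3354. Prevention had a mean sum of 3148 ± 115 (SD, n = 5), OVX 2898 ± 268 and SHAM 2673 ± 186 (SD, n = 7 each), and Treatment 2857 ± 142 (SD, n = 5). Prevention was highest and SHAM lowest in the sum as well, but Prevention overlapped both OVX and Treatment there, while for Rps21 alone it lay above every Treatment library. Rps21 and Rps21-ps1 had a Pearson r of 0.59 over 24 libraries, so they did not move against each other. Reads shared between the features could be split either way, which was not tested, so the value of Rps21 alone is uncertain.

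Rpl22l1 (GRCr8, chromosome 2) is the paralog of Rpl22, which is known to hold down its level. Prevention had 1047, 1184, 1139, 1109 and 1143, and Treatment had 1137 and 1110 in the high set and 913, 860 and 873 in the low set. OVX ran from 866 through 962 to 1082 and SHAM from 731 through 888 to 924. The high set, at 1047 to 1184, overlapped the low set only through OVX replicate 3, at 1082. The mean was 1124 ± 50.9 (SD, n = 5) in Prevention and 856 ± 73.1 (SD, n = 7) in SHAM, a change of 0.40 ± 0.075 (SE), with an adjusted p of 0.0246 in limma. The change was 0.048 with the library set as a term. The call was also lost without Prevention replicate 2, 3 or 4 or SHAM replicate 6, with adjusted p-values in limma from 0.0533 to 0.0935. Within the high set Treatment and Prevention had the same mean to within 0.01 on the log2 scale, with an SE of 0.065.

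**Figure D3:**
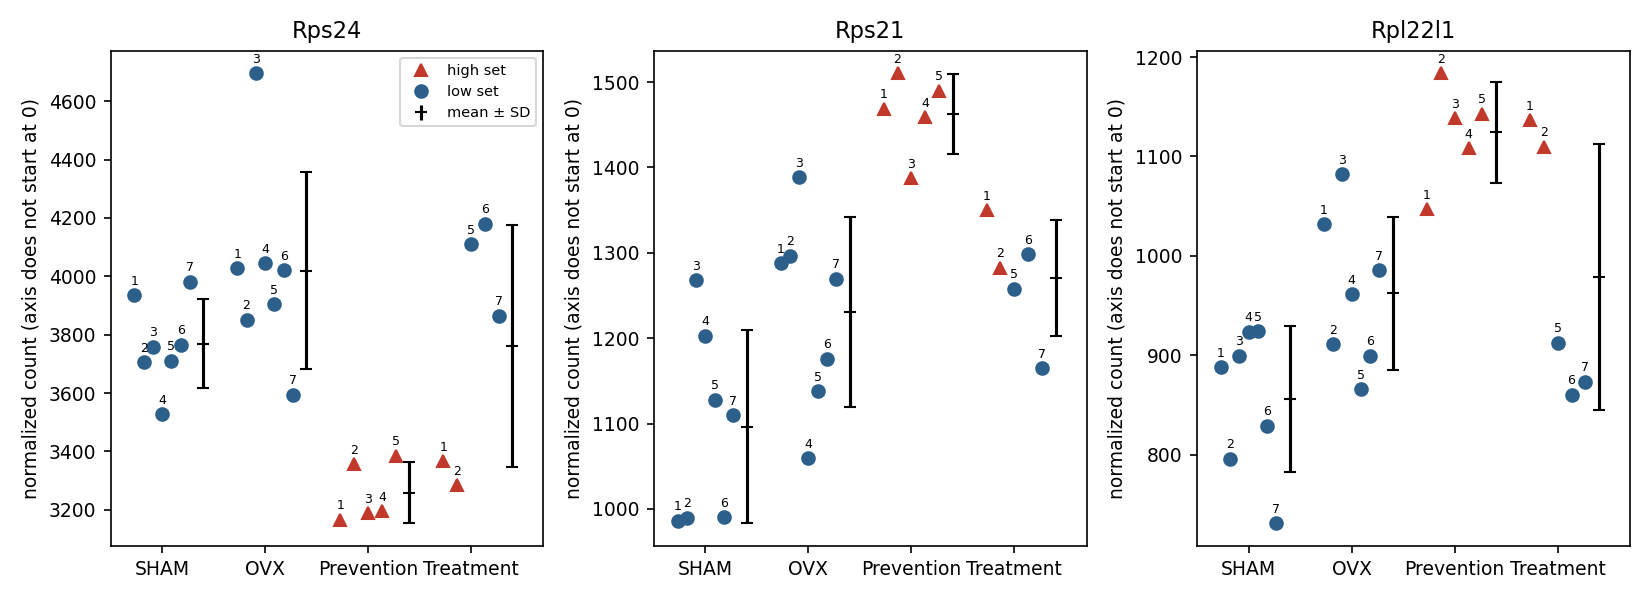
Normalised counts of Rps24, Rps21 and Rpl22l1 in the 24 libraries by group, with replicate numbers; triangles are the high set, circles the low set, bars the mean ± SD, and the axes do not start at 0. Rps24 and Rpl22l1 split the Treatment libraries by set, at 3367 and 3283 against 3865 to 4180 and at 1137 and 1110 against 860 to 913, and Rps21 does not.

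Some members varied widely around the rest. The spread of a member around the family was taken as the SD, over 24 libraries, of its log2 value minus the median of all members in the same library. Its median over the 65 members was 0.091, and 52 members were under 0.15. Among members with a mean of at least 100 it was largest for Rps6 (2.95), Rpl13a (0.50) and Rpl31l4 (0.44). Rpl13a, known also for holding back translation of inflammatory mRNAs when released from the ribosome, ran from 46.2 to 165 normalised counts over the 24 libraries. Its mean of 106 was low beside that of most members, such as Rplp0 at 11277. Whether its reads were counted under another feature was not tested, so its level and changes are uncertain. Rpl31l4 had 599, 808, 717, 693 and 672 in Prevention, 359 through 602 to 658 in OVX and 246 through 510 to 653 in SHAM. Its change from SHAM to Prevention, 0.70 ± 0.19 (SE), had an adjusted p of 0.0941 in limma. The sum with Rpl31, the gene it resembles by name, overlapped between all groups, with means of 4821 in SHAM, 5218 in OVX, 4684 in Prevention and 4973 in Treatment.

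The other duplicates were Rpl3l, known as the muscle form of Rpl3, Rpl10l, known as the testis form of Rpl10, Rps27l, a p53 target, Rpl7l1 and Rps4y2. Rpl3l ran from 2.42 to 24.9 and Rpl10l from 13.9 to 76.5 over the 24 libraries. Rps4y2 ran from 40.0 to 89.4 and Rps27l from 135 to 286, and Rpl7l1 ran from 855 to 1063. Their groups overlapped in every comparison and none passed the test. Rps27l had its most negative change in Treatment against OVX, −0.25 ± 0.17 (SE), and Rpl3l its largest in Treatment against Prevention, 0.45 ± 0.36 (SE).

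The values of 2 core members, Rps6 and Rps10, moved against those of another feature in the same library, and their own changes are uncertain. Rps6, the small subunit protein phosphorylated by S6 kinase downstream of mTOR, had 107, 92.1, 284, 747 and 1097 in Prevention and 128, 690, 317, 1511 and 1703 in Treatment. In OVX it ran from 1.18 to 1151 and in SHAM from 1.08 to 1194. The feature LOC100911372, found after the values were seen, was low where Rps6 was high (Pearson r of −0.74 over 24 libraries, a description). Their sum ran only from 6952 to 8812, with a coefficient of variation of 5.88% against 82.9% for Rps6 alone. The sum was 7761 ± 582 (SD, n = 7) in OVX, 7260 ± 240 (SD, n = 7) in SHAM, 7211 ± 244 (SD, n = 5) in Prevention and 7579 ± 358 (SD, n = 5) in Treatment, and the groups overlapped. For Rps6 alone the log2 change of OVX against SHAM was 0.84 ± 1.5 (SE) while the median count was slightly lower in OVX, 577 against 585. Rps10 on chromosome 20 and Rps10l1, which RefSeq lists as a pseudogene on chromosome 6, showed the same pattern (r of −0.71). Their sum ran from 2572 to 3093, with a coefficient of variation of 4.84% against 12.8% for Rps10 alone. Near-identical copies can share reads in the authors' counting, and whether these do was not tested. The values of Rps10l1 alone are therefore uncertain as well.

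**Figure D4:**
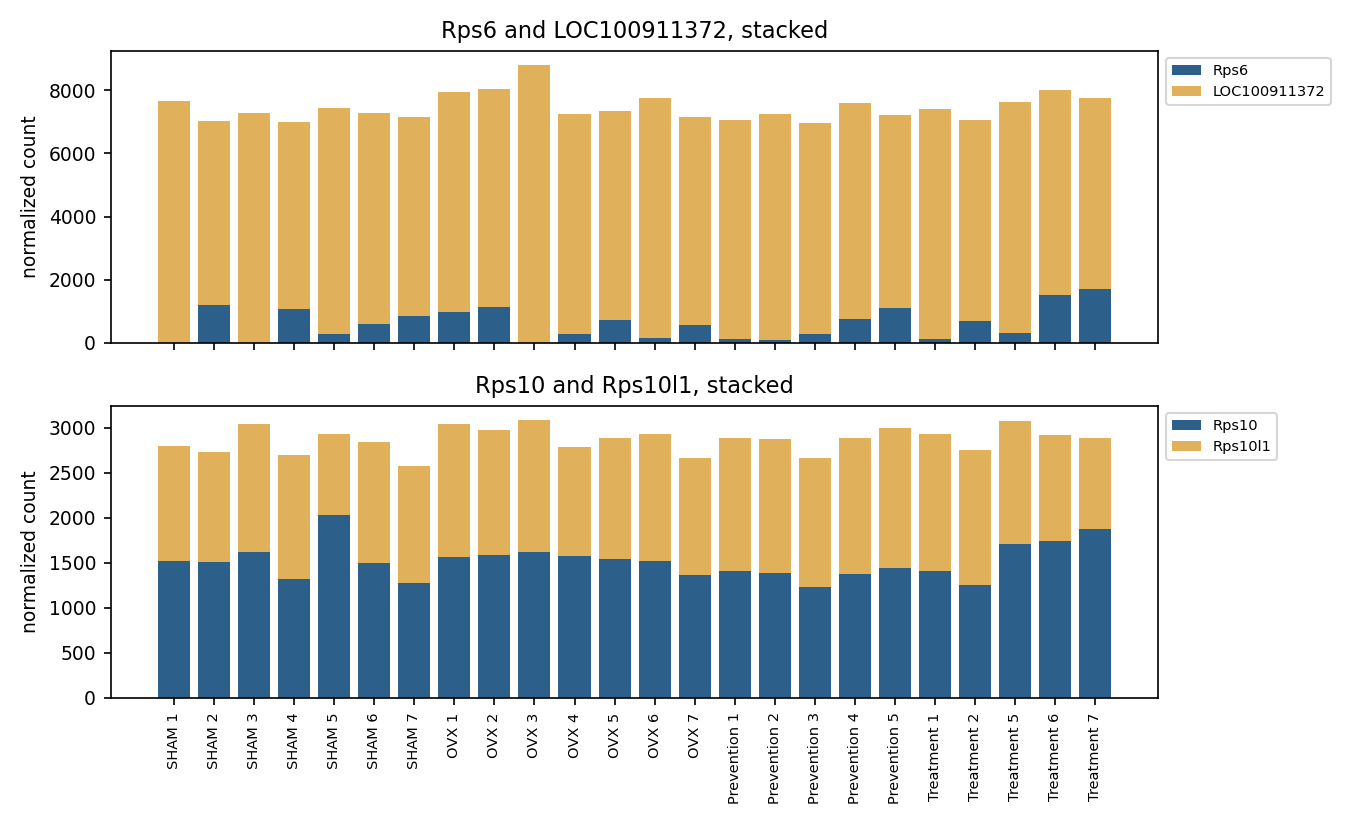
Normalised counts of Rps6 stacked with LOC100911372 and of Rps10 stacked with Rps10l1 in the 24 libraries. The height of the stack stays between 6952 and 8812 and between 2572 and 3093 while the share of Rps6 and of Rps10 in it differs between libraries.

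Some members showed steps between single libraries, and those of Rpl17 and Rpl12 did not follow the groups. Rpl17, a large subunit protein at the tunnel exit, stood at 5376, 5129 and 5432 in replicate 5 of SHAM, OVX and Prevention, and at 2528 to 3432 in the other 21 libraries. Treatment replicate 5 had 2841, so the step was absent there, and no library lay between 3432 and 5129. Rpl12, of the stalk base beside Rplp0, was high in OVX replicate 5 (3601), SHAM replicate 5 (3399), Treatment replicate 1 (3359) and SHAM replicate 1 (3159), and at 2179 to 2817 elsewhere. Rpl28 had 4395 in Treatment replicate 6 and 3567 in replicate 1, against 2621 to 3135 in the other 3 Treatment libraries. In OVX it had 4134, 4101, 5034, 3970 and 4519 in replicates 1, 2, 3, 5 and 7. OVX replicates 4 and 6 had 2813 and 2945. Of SHAM only replicate 1 was high, at 3880, and no Prevention library exceeded 2990. The upper level of Rpl28 was thus most frequent in OVX. Its change in OVX is a difference in how many libraries stood at that level.

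**Figure D5:**
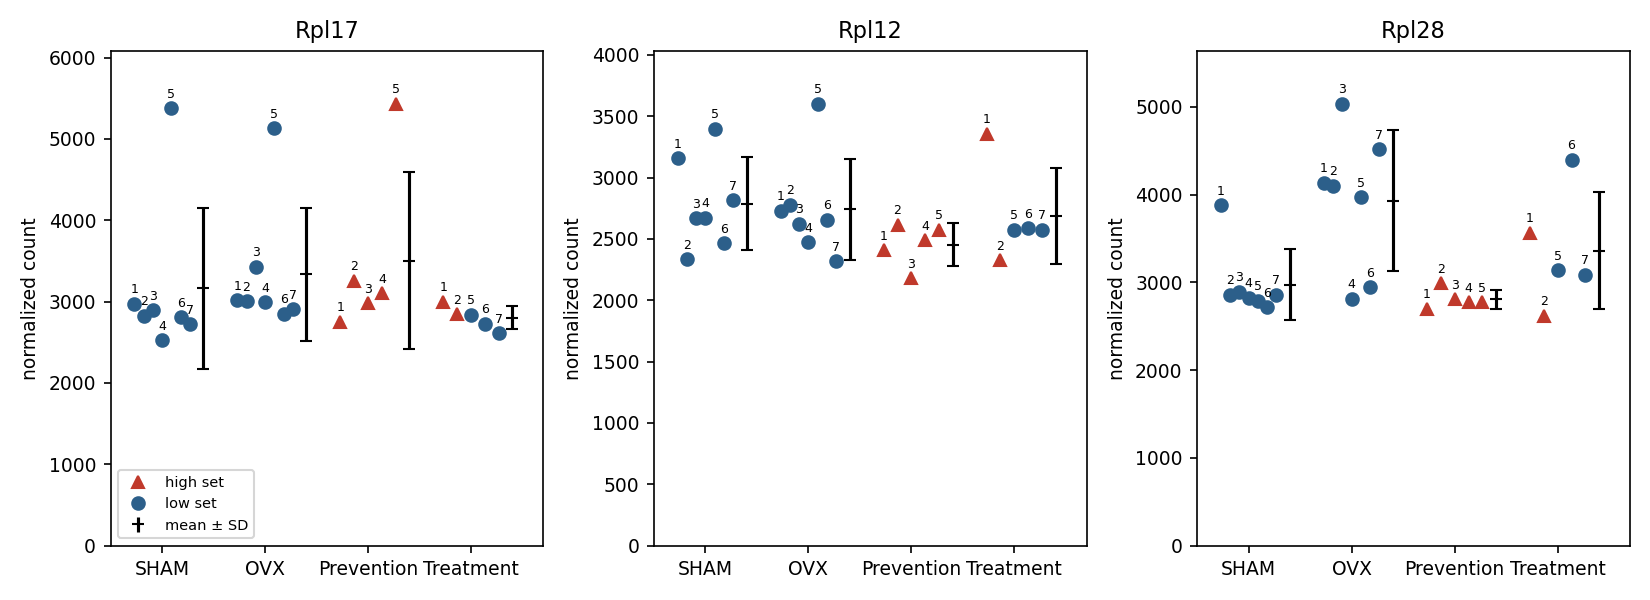
Normalised counts of Rpl17, Rpl12 and Rpl28 in the 24 libraries by group, with replicate numbers; triangles are the high set, circles the low set, bars the mean ± SD, and the axes start at 0. Replicate 5 of SHAM, OVX and Prevention stands at 5129 to 5432 for Rpl17 and the other 21 libraries at 2528 to 3432.

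Other genes of the translation machinery were followed in lists. Over all features, 51.7% were above 0 in OVX against SHAM and 50.2% in Prevention against OVX, and the latter comparison cannot be told apart from the library set. Elongation factors had 7 of 10 members above 0 in the former and 2 of 10 in the latter. Initiation factors had 25 of 32 and 14 of 32, and other mRNAs known to hold a TOP motif, such as Tpt1, Npm1 and Pabpc1, 10 of 11 and 3 of 11. Ribosome biogenesis genes were even in OVX against SHAM, with 29 of 57 above 0, and had 13 of 57 above 0 in Prevention against OVX (median −0.074). Genes of mTOR control had 8 of 17 and 10 of 17 above 0. Mitochondrial ribosomal proteins, which serve translation inside mitochondria and share no subunit with the cytosolic ribosome, had 62 of 73 above 0 (median 0.053) and 8 of 73 above 0 (median −0.11). Their level per library, taken in the same way, was also highest in OVX replicate 3, at 0.26. In Treatment it was −0.14 and −0.046 in the high set and 0.055, 0.017 and 0.039 in the low set. The peak in OVX replicate 3 and the split of Treatment were thus not particular to the cytosolic family.

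No gene of these lists passed an adjusted p of 0.05 in limma in any of the 6 comparisons. In Prevention against OVX, the counts at an unadjusted p under 0.05 were 28 lower and 1 higher for mitochondrial ribosomal proteins, 10 lower and 3 higher for biogenesis, 5 lower and 3 higher for initiation, and 2 lower and 1 higher for elongation. Over all features these shares were 8.56% lower and 10.1% higher. Eif4ebp1, the mTOR substrate that blocks the cap-binding factor, had 212 ± 17.8 (SD, n = 5) in Prevention and 280 ± 44.0 (SD, n = 7) in OVX, a change of −0.39 ± 0.10 (SE), with an adjusted p of 0.0675 in limma. Eif5a2, a factor that frees stalled ribosomes, had 3604 ± 209 and 3082 ± 222, a change of 0.23 ± 0.058 (SE), with an adjusted p of 0.0649 in limma. Larp1, which binds TOP mRNAs, had a change of 0.11 ± 0.044 (SE) there and of −0.096 ± 0.040 (SE) in OVX against SHAM, and neither passed.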

How the data were processed

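The 24 hippocampal libraries were grouped, and their replicate numbers taken, from the labels. Per the submitters' processing notes, reads were quantified with kallisto 0.43 and normalised with DESeq2. Genome build and annotation: not given in the sources used here. What was deposited are normalised counts, a signal that the authors made per gene and library; they are not whole numbers. Column totals ran from 35.4 M to 38.8 M, and precision rests on the spread between libraries because read counts are not given. A pseudocount of 1 was added and log2 taken, with limma 3.58.1 run under R 4.3.3, so that a change of a low gene is understated. The 16119 features with a mean of at least 10 were fitted together over 24 libraries with a mean per group, a mean-variance trend and Benjamini-Hochberg adjustment over all features (threshold 0.05, two-sided). The family was described by counts and medians, with no test over it. The high set was defined as log2(LOC257642 + 1) of at least 16. Members, lists, sets and tests were chosen with earlier results of these data known. The text names Rps21, Rps24, members called in any comparison, the 3 largest changes in each direction (mean of at least 100) in each comparison other than those of the E2 groups with SHAM, Rplp0, paralogs, members next to the minimum of 10, the 3 members of largest spread and list genes with the smallest p; further genes were named after their values were seen. Sequences and positions are from RefSeq tables of GRCr8, which matched 63 of 65 members by symbol, and 50 had a promoter. The fit was tested on simulated data. Same-numbered libraries of different groups did not pair: of 30 such pairs, 8 had a correlation of their deviations over 0.1, and the median was −0.12. Descriptions and plots used Python 3.11.15 with matplotlib 3.10.9.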

Additional observations from a re-analysis of the deposited data

Results flagged for a closer look

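In groups of 4 to 10 libraries, a library was singled out when its gap to the nearest other library was a large part of the group's range (Dixon's test at the 95% level). Of 72 groups examined over the named members and the level of the family, 9 held such a library, and chance alone gives about 1 in 20 for genes not chosen by their values. Most of these members were named for their change or spread, so the 2 rates cannot be compared. Rpl17 had 3 of them: SHAM replicate 5 at 5376 with the next library at 2976, OVX replicate 5 at 5129 with the next at 3432, and Prevention replicate 5 at 5432 with the next at 3255. Rpl12 had OVX replicate 5 at 3601 with the next at 2778, and Treatment replicate 1 at 3359 with the next at 2588. Rpl28 had SHAM replicate 1 at 3880 with the next at 2891. Rps24 had OVX replicate 3 at 4696 with the next at 4044. Below their groups stood Rpl31l4 in OVX replicate 4, at 359, and Rps10 in OVX replicate 7, at 1360 with the next at 1520.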

How the results depend on the processing

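Each number of called members and each median change was recomputed under other pseudocounts (0.5 and 8), filters, scalings and fits, and without each library in turn; the same settings were applied to 8 changes of single genes after the data were seen. For OVX against SHAM, 0 members were called under all 13 alternatives, and the median ran from 0.0576 to 0.103. For Prevention against OVX the number called was 2 with the choroid plexus score as a covariate, 0 with the compared groups alone, 0 with the library set as a term and 0 with the replicate block, against 1. For Prevention against SHAM it was 4 with array weights, 0 with the library set as a term and 0 with the replicate block, against 2. The share of all features called under each setting is not given beside these counts, so they are no result about the family. With the set as a term the median change turned to 0.0504 for Prevention against OVX and to 0.122 for Prevention against SHAM. With the set as a term, and equally within the low set, it turned to 0.0140 for Treatment against OVX and moved to 0.0964 for Treatment against SHAM. With the set as a term, and equally within the high set, it turned to −0.0326 for Treatment against Prevention. In these comparisons the 2 settings must give the same change and are 1 estimate. Only Treatment holds both sets, so both settings compare the same libraries. The changes of Rpl7a and Rpl26 in Prevention against OVX turned to 0.0306 and 0.105 with the set as a term. The cause of these shifts was not tested. Without each library in turn, the number called was 0 for OVX against SHAM and for each comparison of Treatment, 0 to 9 for Prevention against OVX and 1 to 2 for Prevention against SHAM. The median then ran from 0.0558 to 0.112 for OVX against SHAM, −0.131 to −0.0795 for Prevention against OVX, −0.0370 to −0.0157 for Prevention against SHAM, −0.0777 to −0.0164 for Treatment against OVX, 0.0324 to 0.0753 for Treatment against Prevention and 0.0152 to 0.0609 for Treatment against SHAM. With the replicate block, Rpl22l1 in Prevention against SHAM had an adjusted p-value in limma of 0.128. Rps24 and Rps21 were picked for their values and get no test here either. Of the 24 libraries, 3 correlated best with a library of their own number.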
